A study of Mus musculus with 7 samples.

Results

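The 40 DNA replication genes analysed here encode the proteins that license origins, unwind and copy DNA, and supply deoxynucleotides. They were chosen by name, as the rows of the expression files whose Ensembl gene identifier maps to 1 of 40 listed mouse symbols. The rule itself uses no measured value, although earlier results of these data were known when the list was drawn up. All 40 were found among the 32212 gene rows, and all 40 passed the expression filter that left 14838 genes for testing. The list was read in bulk tumours that grew under the skin of C57BL/6J mice after injection of LLC cells, the Lewis lung carcinoma line of mouse lung cancer. The question posed by the design is how expression in these tumours differs between untreated model mice and mice given Ze-qi decoction (ZQD), a herbal preparation.

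Control tumours (n = 4) came from LLC-bearing mice without treatment, and ZQD tumours (n = 3) from LLC-bearing mice given the high dose, 42.67 g/kg. All mice were of wild-type genotype, were 6 weeks old when the cells were injected, and were assigned to groups 3 days later, with 8 mice per group stated in the labels. The tumours were taken at day 21 according to the design text and at day 22 according to the protocol. The labels name the material as tumour cells, but no sorting step is described and the libraries hold RNA of the whole tumour. Nothing in them ties each library to a mouse of its own. The p-values therefore reflect the spread between these samples alone, which may be technical.

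In G1 phase the origin recognition complex, with Cdc6 and Cdt1, loads the ring-shaped MCM helicase onto DNA. At the start of S phase, cyclin E and its kinase act with the E2F transcription factors to switch on synthesis: Cdc45 and the GINS complex join the helicase, primase and polymerase alpha lay down primers, and polymerases delta and epsilon extend them on a sliding clamp of Pcna. Growing tumours keep most of these genes on, and their transcripts are widely used as a readout of the proliferating fraction of a tissue.

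Counted reads numbered 32065288 to 49914394 per control library and 34765330 to 38673663 per ZQD library. Values are FPKM, counted reads scaled to the length of the gene and to the total of the library, so a gene's FPKM is a share of its library. Mitochondrially encoded transcripts took 5.18% to 7.96% of reads in controls and 8.78% to 11.1% in ZQD, with no overlap between the groups. Vim, the intermediate filament gene of mesenchymal and many cultured tumour cells, was at 459.8 to 703.9 FPKM, whereas the lung epithelial genes Sftpc and Nkx2-1 and the epithelial genes Krt8 and Epcam were at or near 0, with a highest value of 0.288 FPKM. Other epithelial genes were present, with the keratin Krt19 at 6.26 to 31.6 FPKM and Cdh1, E-cadherin, at 0.551 to 1.26. The 14 macrophage and monocyte markers summed to 763.2 to 1099 FPKM across the controls and to 1136 to 1479 in ZQD, again with no overlap. A few abundant genes carry much of this sum, among them Lyz2, at 115.1 to 326.1 and 362.2 to 538.3 FPKM. Of the 13 markers tested, the groups did not overlap for 6 (46.2%, beside 15.2% of all genes tested). They overlapped for Cd68, Adgre1, Csf1r and C1qa, among others. The part of macrophages and monocytes in the values of the replication genes was not tested.

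No replication gene passed the test between ZQD and control tumours. At a Benjamini-Hochberg adjusted p under 0.05 in limma, 0 of the 40 were called, as were 0 of the 14838 genes tested (0.00%). The smallest adjusted p among the 40 was 0.178. At an unadjusted p under 0.05, 4 of the 40 (10%) were lower in ZQD and 0 higher, beside 10.3% lower and 5.21% higher of all genes tested, together 15.5%. edgeR on reads recovered from the FPKM also gave 4 at an unadjusted p under 0.05 and called 0 (all genes: 15.0% and 0.00%), and DESeq2 called 0 of the 40 beside 3.49% of all genes. A share of 10% is no higher than the background of these libraries.

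The fold changes of the 40 genes clustered around 0. On the log2(FPKM + 0.5) scale, ZQD minus control, which understates changes of low genes, they ran from -0.63 to 0.21 with a median of -0.035, beside -0.043 over all genes tested. The estimates of 24 genes (60%) lay below 0 and those of 16 above it, beside 58.2% and 41.8% of all genes tested. For 36 of the 40 the estimate was within 0.3 of 0. The groups did not overlap for 3 genes (7.5%), E2f1, Cdt1 and Fen1, each lower in ZQD, beside 15.2% of all genes tested (9.84% lower and 5.35% higher). The 95% interval of limma lay wholly within 1 log2 unit of 0 for 38 genes, so a difference of 1 log2 unit was outside the interval for these. The median distance from the estimate to the interval's end was 0.32, so smaller differences could go undetected. These intervals are not adjusted for the number of genes, and at the adjusted threshold even the estimate of -0.63 did not pass. On FPKM rescaled without the mitochondrially encoded genes, 19 estimates lay below 0 and the median was 0.017. In bulk tissue, fewer cycling cells and less RNA per cell cannot be told apart.

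**Figure D1:**
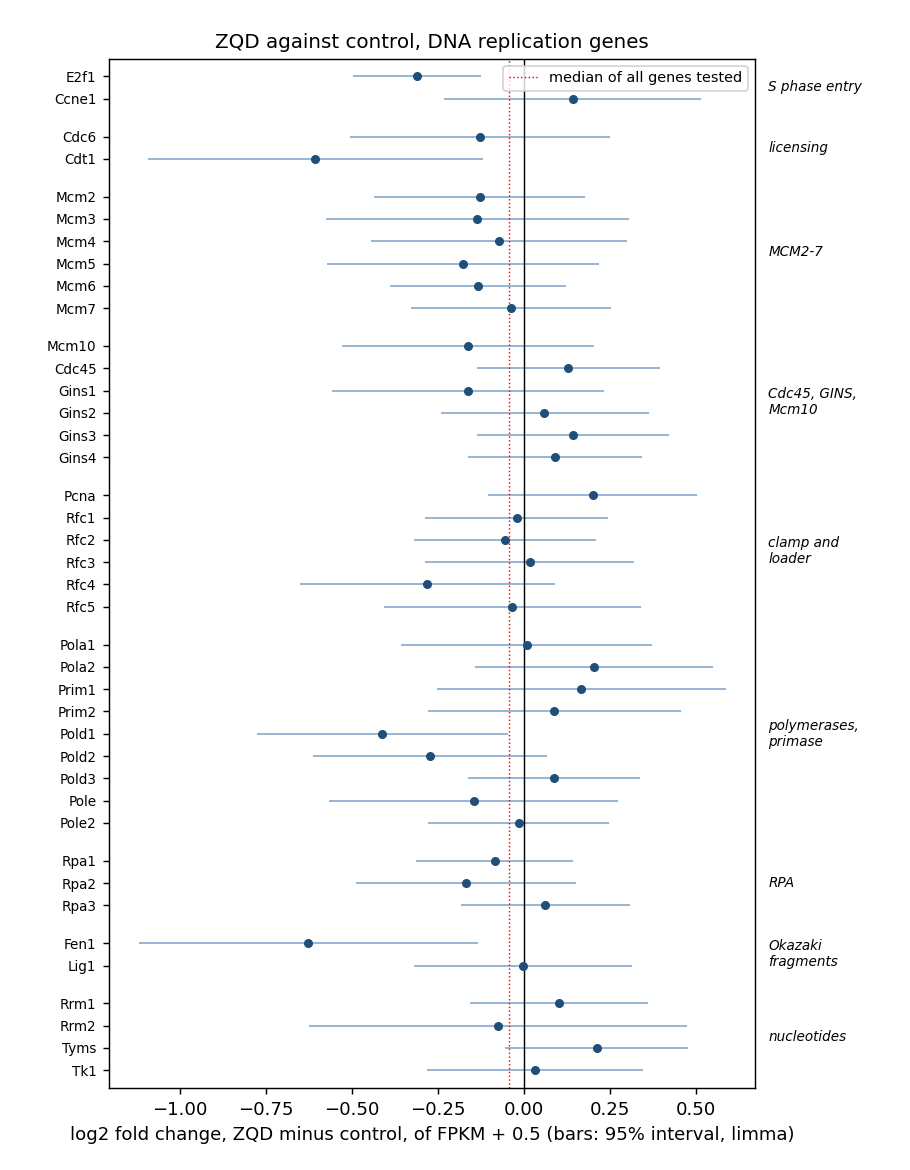
Fold change of each of the 40 replication genes between ZQD (n = 3) and control (n = 4) tumours, on the log2(FPKM + 0.5) scale; points are limma estimates, bars their 95% intervals, and the dotted line the median of all 14838 genes tested (-0.043). The intervals of E2f1, Cdt1, Pold1 and Fen1 lie below 0 and the other 36 cross it.

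Among the genes of S phase entry, E2f1 was the member with the smallest p. E2f1 (ENSMUSG00000027490, on chromosome 2) encodes a transcription factor that the retinoblastoma protein holds back until the cell commits to S phase. Its level was 14.4, 15.7, 15.1 and 15.1 FPKM across controls 1 to 4 and 11.9, 13.02 and 11.3 in ZQD 1 to 3. Every ZQD library lay below every control, and the controls were close to each other, spanning only 1.09-fold. The mean was 15.04 ± 0.521 (SD, n = 4) in controls and 12.1 ± 0.884 (n = 3) in ZQD. The log2 fold change was -0.31 ± 0.081 (SE), with a 95% interval of -0.49 to -0.12. In limma this gave an unadjusted p of 0.00467 and an adjusted p of 0.178, so the difference did not pass the test. Over the alternative settings the adjusted p ran from 0.0988 to 0.36 and the fold change from -0.41 to -0.26, with an unadjusted p under 0.05 in each. The values rest on 1237 to 2265 reads per library, and no exon of another gene overlaps those of E2f1 in GENCODE M21. Ccne1, which encodes cyclin E1, was at 4.24 to 5.87 FPKM across the controls and 4.33 to 6.39 in ZQD, and its estimate of 0.14 had an interval of -0.23 to 0.52.

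Of the licensing factors, Cdt1 (ENSMUSG00000006585, on chromosome 8) brings the MCM ring to the origin and is degraded once S phase begins. It was at 18.6, 21.4, 17.7 and 28.7 FPKM across the controls and at 10.05, 14.6 and 17.6 in ZQD. The groups just failed to overlap, with the highest ZQD library at 17.64 and the lowest control at 17.70 FPKM, and the values spread widely within both groups. The mean was 21.6 ± 4.98 FPKM across the controls and 14.1 ± 3.82 in ZQD, a difference that did not pass the test (log2 fold change -0.61 ± 0.21, limma unadjusted p = 0.0208, adjusted p = 0.252, range over the alternatives 0.116 to 0.458). Without ZQD 1, the lowest library, the estimate was -0.39 and the unadjusted limma p 0.0822. Cdc6, the ATPase that works with Cdt1, was at 6.55 to 9.61 FPKM across the controls and 6.52 to 9.21 in ZQD, so its groups overlapped almost fully (log2 fold change -0.13, interval -0.50 to 0.25).

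MCM2-7 are the 6 subunits of the replicative helicase, and Mcm6 had the highest FPKM of them and Mcm2 the lowest. Mcm2 was at 11.9, 16, 13.5 and 16.1 FPKM across controls 1 to 4 and 11.3, 13.3 and 14.6 in ZQD 1 to 3. Mcm3 was at 28.04, 49.3, 34.9 and 38.97 FPKM across the controls and 27.7, 34.2 and 40.2 in ZQD. Mcm4 was at 25.2, 38.7, 27.8 and 34.4 FPKM across the controls and 25.6, 29.1 and 34.5 in ZQD. For these subunits control 1 and ZQD 1 were the low libraries and controls 2 and 4 and ZQD 3 the high ones, and the groups overlapped. Mcm5 was at 20.4, 28.3, 23.2 and 34.2 FPKM across the controls and 20.1, 23.3 and 25.8 in ZQD. Mcm6 was at 48.5, 58.6, 52.1 and 63.3 FPKM across the controls and 47.6, 48.2 and 55.9 in ZQD. Mcm7 was at 25.1, 34.4, 28.9 and 35.7 FPKM across the controls and 28.9, 29.1 and 31.9 in ZQD. The same controls were high and low again, and the ZQD values lay within or just under the range of the controls.

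The estimates of all 6 MCM subunits lay below 0, from -0.18 for Mcm5 to -0.038 for Mcm7, but the direction depended on the scaling for Mcm7, which was at 0.016 after rescaling without mitochondrially encoded genes. None had an unadjusted limma p under 0.05, and the smallest adjusted p was 0.596, for Mcm6. The Mcm6 interval, -0.39 to 0.12, was the narrowest of the 6. Leaving out ZQD 1 moved Mcm3 and Mcm4 to 0.004 and 0.028, and leaving out control 2 moved them to 0.001 and 0.031.

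**Figure D2:**
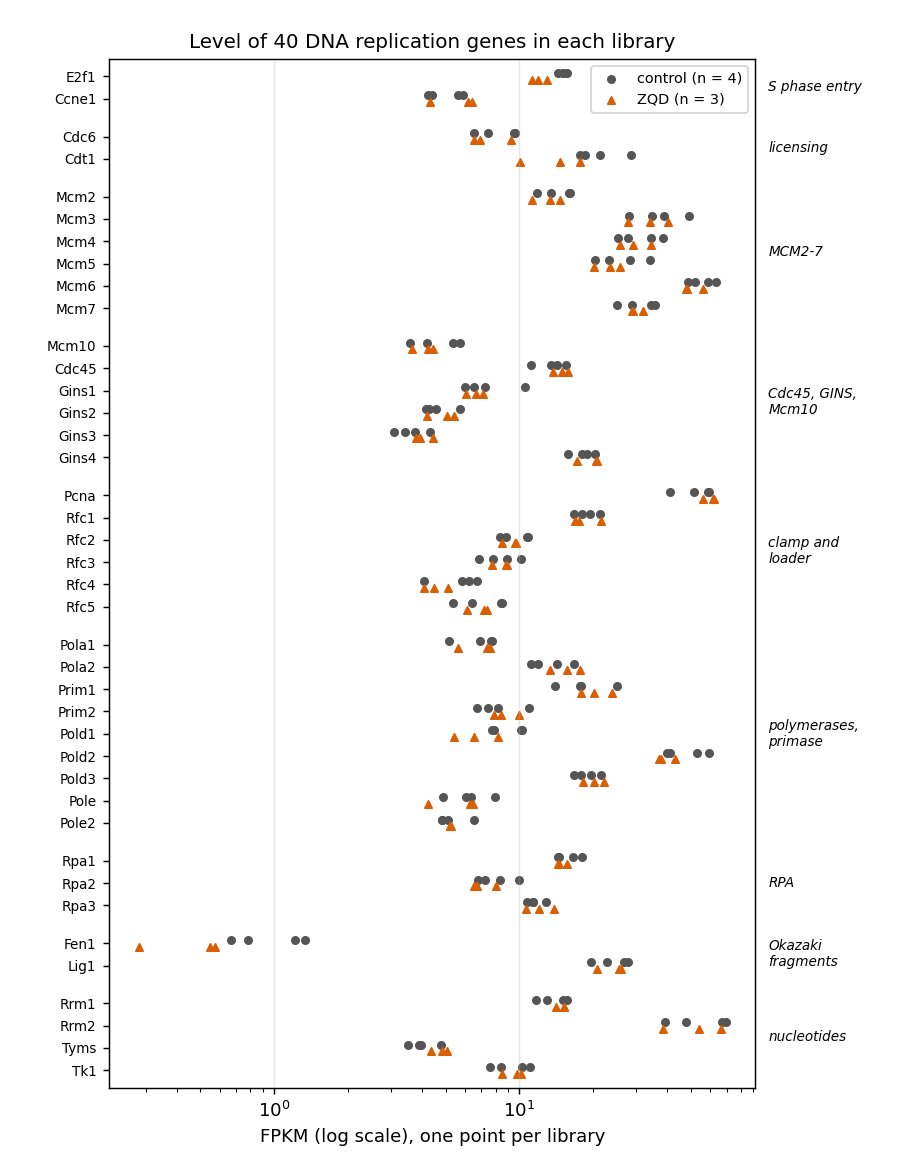
FPKM of the 40 replication genes on a log axis, with 1 point per library (grey circles, 4 controls; orange triangles, 3 ZQD) and the genes grouped by role. Levels range from Fen1, at 0.28 to 1.34 FPKM, to Rrm2, which reaches 69.6 FPKM, and only E2f1, Cdt1 and Fen1 have all ZQD libraries below all controls.

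The helicase is switched on when Cdc45 and the 4 GINS subunits bind it and Mcm10 lets it move. None of these 6 genes passed the test or had an unadjusted limma p under 0.05, and 4 estimates lay above 0 and 2 below. Gins3, with the smallest p of the group, was at 3.09, 4.30, 3.42 and 3.76 FPKM across the controls and 3.79, 3.93 and 4.44 in ZQD (log2 fold change 0.14, interval -0.14 to 0.42). Gins4 had the highest FPKM of the group, at 18.01, 18.8, 15.8 and 20.4 across the controls and 20.7, 17.1 and 20.6 in ZQD. Its log2 fold change was 0.091 (interval -0.16 to 0.34), and -0.009 on the TPM scale. In both genes the groups overlapped, and the lowest library was a control. Cdc45 was at 0.13, Mcm10 at -0.16 and Gins1 at -0.16 on the log2 scale of differences, with intervals that cross 0. Gins2 shares 67.3% of its exon bases with Gse1 on the other strand in GENCODE M21, and no source used here gives the strand setting of the counting, so its level of 4.16 to 5.71 FPKM is uncertain. Of the 40 genes, 12 share exon bases with another gene and have this limit to a differing degree. Among them are Fen1 (84.2%), Rfc2 (15.1%), Rfc4 (12.7%), Mcm7 (12.6%) and Rfc5 (10.7%).

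Pcna (ENSMUSG00000027342, on chromosome 2) encodes the ring that tethers polymerases to DNA and is a common proliferation marker. It was at 41.01, 58.6, 51.6 and 59.5 FPKM across the controls and 56.1, 61.7 and 62.2 in ZQD. All ZQD values were within or just above the range of controls 2 to 4, and control 1 lay below the other 6 libraries. The estimate was 0.20, with an interval of -0.10 to 0.50 and a limma adjusted p of 0.497, in the opposite direction to the 4 genes with an unadjusted p under 0.05. The clamp loader, replication factor C, opens that ring. Its subunit Rfc4 was at 4.08, 6.23, 5.84 and 6.71 FPKM across the controls and 4.09, 4.49 and 5.10 in ZQD (log2 fold change -0.28, interval -0.65 to 0.090). Control 1 was the lowest of the 7 libraries, and the other 3 controls lay above every ZQD library. Rfc1, Rfc2, Rfc3 and Rfc5 had estimates from -0.055 to 0.017, whose signs changed with the scaling for Rfc1, Rfc3 and Rfc5.

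Of the 9 polymerase and primase genes, 1 had an unadjusted limma p under 0.05. Pold1 (ENSMUSG00000038644, on chromosome 7), the catalytic subunit of polymerase delta, was at 7.77, 10.3, 7.85 and 10.2 FPKM across the controls and 5.40, 6.51 and 8.17 in ZQD. ZQD 1 and ZQD 2 lay below all controls, and ZQD 3 lay between controls 1 and 3 below and controls 2 and 4 above. The log2 fold change was -0.41 ± 0.16 (limma unadjusted p = 0.0312, adjusted p = 0.281, range over the alternatives 0.152 to 0.503). The unadjusted p was 0.0756 without control 2, 0.0764 without control 4, 0.124 without ZQD 1 and 0.0716 without ZQD 2, with estimates from -0.40 to -0.28.

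Pold2, the accessory subunit of the same enzyme, had the highest FPKM of the polymerase and primase genes. It was at 39.95, 59.5, 41.02 and 52.9 FPKM across the controls and 37.9, 43.3 and 37.3 in ZQD. Controls 2 and 4 stood above the rest, and the groups overlapped (log2 fold change -0.27, interval -0.61 to 0.068). Pold3, the third subunit, had an estimate of 0.089, and -0.012 on the TPM scale. The genes of primase and polymerase alpha, which make the primers, had estimates above 0, with 0.20 for Pola2, 0.17 for Prim1, 0.089 for Prim2 and 0.009 for Pola1, and on the TPM scale Prim2 and Pola1 were at -0.008 and -0.087. Polymerase epsilon, which copies the leading strand, was at -0.15 for Pole and -0.014 for Pole2. None of these 8 intervals excluded 0.

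Replication protein A coats single-stranded DNA. Rpa1, its largest subunit, was at 14.4, 17.98, 14.5 and 16.5 FPKM across the controls and 14.5, 14.4 and 15.6 in ZQD. Rpa2 was at 6.76, 8.36, 7.26 and 9.92 FPKM across the controls and 6.70, 6.52 and 8.06 in ZQD. The ZQD values lay within or just under the control range, and the estimates of -0.084 and -0.17 had intervals that cross 0. Rpa3 had an estimate of 0.063, and -0.036 on the TPM scale.

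Fen1 (ENSMUSG00000024742, on chromosome 19), the nuclease that trims the flaps of Okazaki fragments, had the most negative estimate and the lowest level of the 40. It was at 0.786, 1.22, 0.670 and 1.34 FPKM across the controls and 0.280, 0.577 and 0.546 in ZQD, which is 52 to 128 reads and 25 to 54 reads. All ZQD libraries lay below all controls. The log2 fold change was -0.63 ± 0.22 (limma unadjusted p = 0.0190, adjusted p = 0.248, range over the alternatives 0.145 to 0.457), and the unadjusted p was 0.0733 without ZQD 1. Because the pseudocount weighs on so low a gene, the estimate was -1.06 in edgeR and -0.96 with a pseudocount of 0.1. In GENCODE M21, 84.2% of the exon bases of Fen1 are shared with Tmem258 and Gm10143 on the other strand. No source used here says how the authors' counting assigned reads in such overlaps, so the Fen1 value is uncertain. Lig1, the ligase that seals the trimmed fragments, was at 19.6, 26.8, 22.7 and 27.7 FPKM across the controls and 20.7, 25.5 and 26.0 in ZQD. Its groups overlapped fully, and its estimate of -0.002 ran from -0.10 on the TPM scale to 0.10 without ZQD 1.

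The groups overlapped for all 4 genes of deoxynucleotide supply. Rrm2, the small and S phase regulated subunit of ribonucleotide reductase, was at 39.1, 69.6, 48.0 and 67.2 FPKM across the controls and 38.5, 53.9 and 66.5 in ZQD. It ranged over 1.78-fold among the controls alone, and low and high libraries occurred in both groups (log2 fold change -0.074, interval -0.62 to 0.47). Tyms, which makes thymidylate, was at 3.51, 4.79, 3.99 and 3.91 FPKM across the controls and 5.05, 4.36 and 4.85 in ZQD. ZQD 1 and ZQD 3 lay above all controls and the estimate was the highest of the 40, at 0.21 with an interval of -0.053 to 0.48. Without control 2, Tyms had an unadjusted limma p under 0.05. Rrm1 and Tk1, thymidine kinase, had estimates of 0.10 and 0.034, and Tk1 was at -0.064 on the TPM scale.

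**Figure D3:**
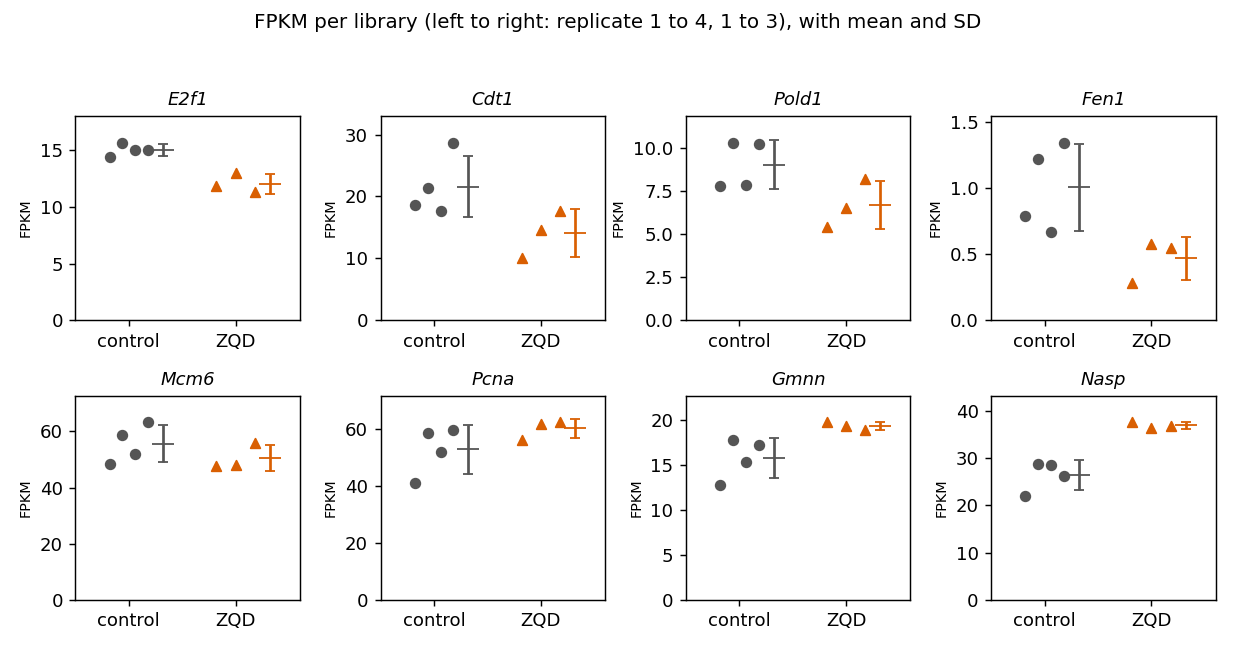
FPKM in each library for 8 genes, with grey circles for controls 1 to 4 and orange triangles for ZQD 1 to 3, each from left to right, and the mean with SD beside them. All axes start at 0. In E2f1, Cdt1 and Fen1 the groups do not overlap and ZQD is lower, in Gmnn and Nasp they do not overlap and ZQD is higher, and in Pold1, Mcm6 and Pcna they overlap.

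The 40 genes varied together from library to library. Control 1 held the lowest control value for 34 of them (85%) and the highest for 0, whereas it was lowest of the controls for 21.5% of all genes tested. Controls 2 and 4 held the highest control value for 20 genes each (50%, beside 27% and 24.3% of all genes). Among the ZQD libraries, ZQD 1 was lowest for 27 genes (67.5%, beside 32.5%) and ZQD 3 highest for 30 (75%, beside 34.8% of all genes). Set against its own mean over the 7 libraries, 37 genes were low in control 1, 34 in control 3 and 31 in ZQD 1, while 38 were high in control 2, 34 in control 4 and 34 in ZQD 3. Of all genes tested, 43.2% were low in control 1, 45.6% in control 3 and 51.5% in ZQD 1. In control 2, control 4 and ZQD 3, 46.8%, 48.4% and 52.3% of all genes were low. The split thus ran within both groups.

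The summed level of the 40 genes was 557.8, 779.2, 624.9 and 762.0 FPKM across controls 1 to 4 and 589.7, 649.0 and 715.2 in ZQD 1 to 3. The ZQD sums lay inside the control range. The median SD of log2(FPKM + 0.5) among controls was 0.231 for the replication genes, 0.165 over all genes tested and 0.159 over the 12700 genes whose level fell in the range of the members. Among ZQD libraries it was 0.153, 0.162 and 0.157, so the replication genes spread more widely than other genes among the controls and not among the ZQD libraries. Leaving out control 1 put 28 of the 40 estimates below 0 with a median of -0.12, and leaving out control 2 put 17 below 0 with a median of 0.035. E2f1 did not share this pattern: it was lowest of the controls in control 1 but by little, and ZQD 3, high for most members, held its lowest value.

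**Figure D4:**
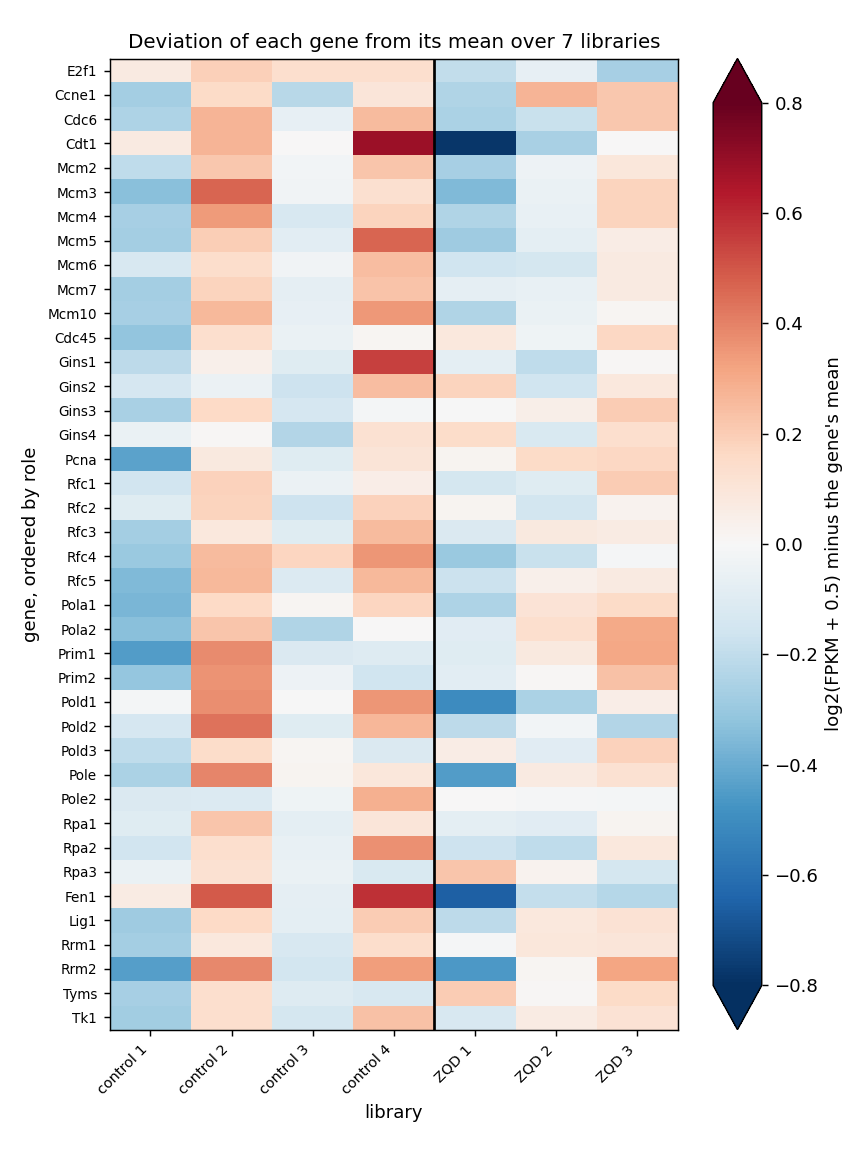
Deviation of each replication gene from its own mean over the 7 libraries, in log2(FPKM + 0.5), with genes in rows by role and libraries in columns (controls left of the line, ZQD right); red is above and blue below the mean, and the colour scale ends at 0.8 in each direction. Control 1 is blue for 37 genes, controls 2 and 4 are red for 38 and 34, and ZQD 3 is red for 34.

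Libraries also differed in other cell types. The 8 fibroblast markers summed to 142.5, 73.1, 81.8 and 36.4 FPKM across controls 1 to 4 and 100.9, 211.9 and 47.7 in ZQD 1 to 3. The 6 skeletal muscle markers summed to 27.2 FPKM in control 1 and to 2.07 to 8.83 in the other 6 libraries, and the 7 red cell and platelet markers to 241.9 in control 1, 413.8 in ZQD 2 and 61.5 to 146.6 in the rest. Control 1, the lowest control for most replication genes, was thus the highest control for these 3 lists. It was also the highest control for the neutrophil and the B and plasma cell lists, and the lowest for the endothelial list. ZQD 2 held the highest fibroblast and red cell sums of the 7 libraries. Its replication sum of 649.0 FPKM lay between those of ZQD 1 (589.7) and ZQD 3 (715.2). The 10 neutrophil markers summed to 14.2 to 33.01 FPKM across the controls and 20.3 to 77.3 in ZQD, and the 7 endothelial markers to 17.4 to 28.7 and 17.7 to 35.9. The part of these cells in the replication values was not tested.

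**Figure D5:**
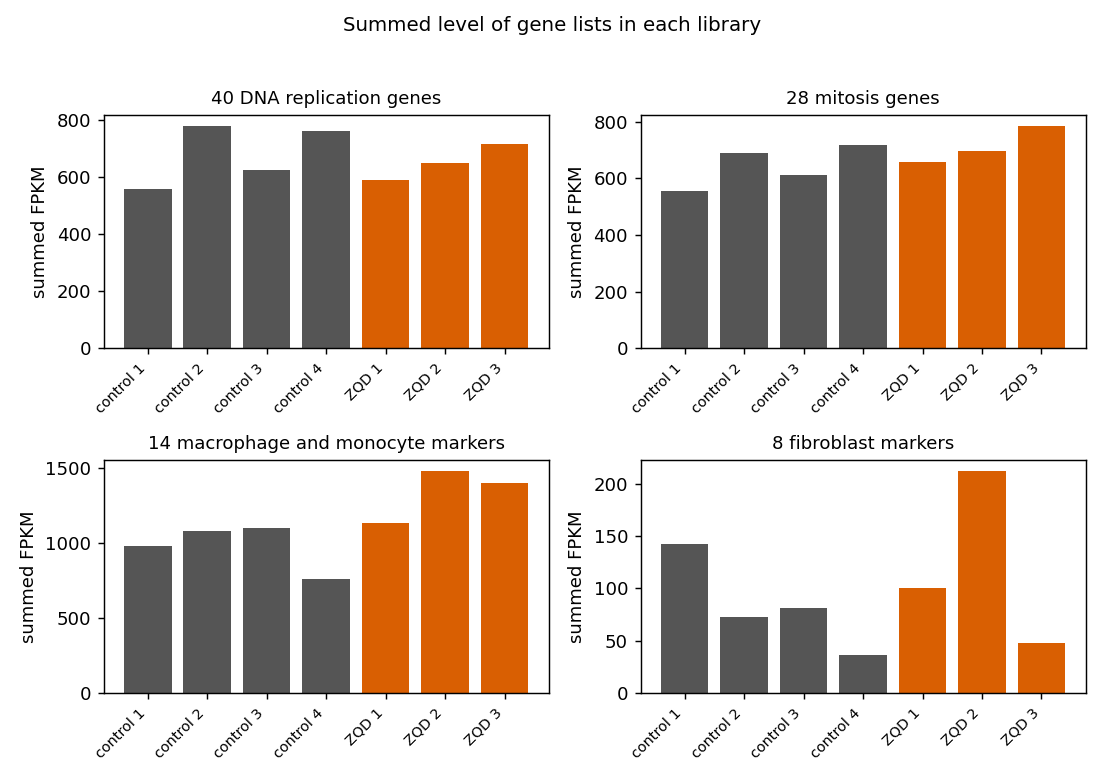
Summed FPKM in each library of the 40 replication genes, 28 mitosis genes, 14 macrophage and monocyte markers and 8 fibroblast markers, with bars from 0 (grey, controls; orange, ZQD). Replication sums of ZQD (589.7 to 715.2) lie inside the control range (557.8 to 779.2), while the macrophage sums of ZQD (1136 to 1479) lie above those of controls (763.2 to 1099). Singly, 6 of the 13 tested macrophage and monocyte markers had groups that did not overlap (46.2%, beside 15.2% of all genes tested).

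The highest and the lowest subunit of most complexes were the same in every library, while the total moved. FPKM divides reads by the summed length of all exons of a gene, which can exceed the length of the expressed transcript. The orders and ratios given here are of FPKM and depend on that length. For Rrm1 it was 11012 bases and for Rrm2 2771, with 4577 to 6805 and 3936 to 7496 reads per library. How far the ratios reflect numbers of transcripts was not tested. Mcm6 was the highest and Mcm2 the lowest MCM subunit in 7 of 7 libraries, and the ratio of Mcm6 to Mcm2 was 3.89 ± 0.180 in controls (SD, n = 4) and 3.89 ± 0.304 in ZQD (n = 3). By mean level the order was Mcm6, Mcm3, Mcm4, Mcm7, Mcm5 and Mcm2, and it was identical in 4 libraries, since the middle 4 subunits lay close together. For GINS the order was Gins4, Gins1, Gins2 and Gins3 in all 7 libraries, with a ratio of highest to lowest of 5.06 ± 0.678 in controls and 4.82 ± 0.581 in ZQD. Polymerase delta had the order Pold2, Pold3 and Pold1 in 7 of 7, with a ratio of 5.33 ± 0.297 in controls and 6.07 ± 1.32 in ZQD. RPA kept the order Rpa1, Rpa3 and Rpa2 in 7 of 7, and Rrm2 exceeded Rrm1 in 7 of 7 by 3.99 ± 0.563 and 3.56 ± 0.818 times. Of polymerase alpha and primase, Prim1 was highest in 7 of 7 libraries and Pola1 lowest in 6, with a ratio of 2.71 ± 0.408 in controls and 3.01 ± 0.230 in ZQD. Pole and Pole2 were close and changed places in 2 libraries. In these complexes the spread within the groups covered the difference between the 2 mean ratios. Replication factor C, where Rfc1 was highest and Rfc4 lowest in 7 of 7, had ratios of 3.38 ± 0.535 and 4.09 ± 0.173. Its ratios overlapped between the groups as well. Rfc1 and Rfc4 were at 16.78 and 4.077 FPKM in control 1 and at 17.49 and 4.487 in ZQD 2, a higher ratio in control 1. The difference between the mean ratios was not tested.

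The promoters of the 40 genes were searched for motifs that cell cycle genes are known to share. Whether these motifs bear on the variation between libraries was not tested. The RefSeq promoter table (build GRCm38.p6) held 38 windows for 33 of the 40 genes, each from 250 bases before to 50 bases after a RefSeq transcription start. For 32 of these windows the final bases occur, at any position, in a transcript of the gene in GENCODE M21. They do not for the windows of Mcm6, Mcm5, Rpa1 and Rfc4 and for a window each of Lig1 and Fen1. Whether the windows lie at the start of a GENCODE transcript was not checked. The E2F motif was searched on both strands as TTTCCCGC, TTTGGCGC, TTTCGCGC or TTTGCCGC, and its core as the same letters without the first T, so every E2F match is also a core match. The CCAAT box, bound by NF-Y, was searched as CCAAT, and the CHR element of G2 and M phase genes as TTTGAA, and matches of different motifs can overlap. An E2F match was present for 13 of 33 genes (39.4%) and a core match for 21 (63.6%), beside 2.6% and 10.9% of the 27025 genes in the table. CCAAT was present for 19 (57.6%) beside 41.1%, and CHR for 5 (15.2%) beside 20.2%. By count, the E2F letters were thus more frequent in these windows than over all genes and the CHR letters were not. A match is a description of the sequence and not a site of binding.

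Printed here are the 170 bases before the RefSeq start for 6 genes whose windows show the range from several E2F core and CCAAT matches to none of the former, from the minus strand for Mcm6 (chr1:128359706-128359875), Mcm7 (chr5:138171884-138172053) and Pcna (chr2:132253181-132253350) and from the plus strand for Mcm5 (chr8:75109339-75109508), Gins3 (chr8:95633389-95633558) and Cdc6 (chr11:98907981-98908150). Capitals mark the E2F core and the CCAAT box on either strand.
Mcm6: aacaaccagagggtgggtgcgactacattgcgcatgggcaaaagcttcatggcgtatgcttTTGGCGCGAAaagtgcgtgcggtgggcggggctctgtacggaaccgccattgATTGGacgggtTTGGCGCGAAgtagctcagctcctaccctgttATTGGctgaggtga
Mcm5: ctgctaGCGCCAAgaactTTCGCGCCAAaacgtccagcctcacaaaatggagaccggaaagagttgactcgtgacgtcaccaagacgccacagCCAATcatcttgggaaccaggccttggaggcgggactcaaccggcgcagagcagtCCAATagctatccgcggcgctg
Mcm7: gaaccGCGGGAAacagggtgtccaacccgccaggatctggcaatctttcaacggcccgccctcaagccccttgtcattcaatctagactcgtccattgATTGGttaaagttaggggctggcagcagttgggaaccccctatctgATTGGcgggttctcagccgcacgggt
Gins3: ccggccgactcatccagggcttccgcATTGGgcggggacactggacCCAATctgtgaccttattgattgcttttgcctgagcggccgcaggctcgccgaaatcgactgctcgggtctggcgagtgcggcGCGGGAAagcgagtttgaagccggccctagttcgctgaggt
Cdc6: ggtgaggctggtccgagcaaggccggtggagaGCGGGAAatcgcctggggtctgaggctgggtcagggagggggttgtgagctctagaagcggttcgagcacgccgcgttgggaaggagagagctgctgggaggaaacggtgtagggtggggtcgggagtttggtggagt
Pcna: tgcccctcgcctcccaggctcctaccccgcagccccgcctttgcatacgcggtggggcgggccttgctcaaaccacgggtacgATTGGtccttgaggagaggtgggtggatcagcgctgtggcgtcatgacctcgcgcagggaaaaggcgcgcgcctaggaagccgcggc
Mcm6 carries 2 pairs and Mcm5 1 pair of overlapping core matches on opposite strands, and Mcm6, Mcm5, Mcm7 and Gins3 carry 2 CCAAT boxes each in these stretches. Cdc6 has a core match and no CCAAT box, and Pcna a CCAAT box alone. The estimates of these 6 genes were -0.13, -0.18, -0.038, 0.14, -0.13 and 0.20 in the order printed, all with intervals that cross 0. Of the 4 genes with an unadjusted limma p under 0.05, Cdt1 and Pold1 had an E2F match. Fen1 had a core match and a CHR match in different windows. E2f1 had no match to any of the 4 motifs in its window. Whether that window covers the promoter of E2f1 was not checked, so the promoter cannot be said to lack these motifs.

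The rest of the pathway was read from lists that hold none of the 40 genes. Of 38 other replication factors (origin recognition, checkpoint and chromatin assembly genes), 37 were tested and 0 passed the adjusted threshold in limma, while 3 were higher and 2 lower at an unadjusted p under 0.05 (13.5%, beside 15.5% of all genes tested). Nasp, a chaperone of histones H3 and H4, was at 22.1, 28.9, 28.5 and 26.3 FPKM across the controls and 37.6, 36.3 and 36.9 in ZQD. All ZQD libraries lay well above all controls and close to each other. The log2 fold change was 0.48 ± 0.10 (limma unadjusted p = 0.00140, adjusted p = 0.154), and DESeq2 called it (adjusted p = 0.00168) where edgeR did not (adjusted p = 0.123). Gmnn, geminin, which binds Cdt1 and blocks relicensing, was at 12.8, 17.7, 15.3 and 17.3 FPKM across the controls and 19.8, 19.3 and 18.9 in ZQD. Its groups did not overlap and ZQD was higher (log2 fold change 0.29 ± 0.12, limma unadjusted p = 0.0336, adjusted p = 0.287), opposite in sign to Cdt1. Gmnn was picked for description after its values were seen, as was Top1, topoisomerase I. DESeq2 called Top1 (log2 fold change 0.32, adjusted p = 0.0498), and limma and edgeR did not (adjusted p = 0.250 and 0.196). Of the 37 tested genes of this list DESeq2 called 2, beside 3.49% of all genes.

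Pole4, a small histone-fold subunit of polymerase epsilon, was at 7.48, 8.58, 7.86 and 9.79 FPKM across the controls and 6.60, 6.35 and 6.19 in ZQD, with no overlap (log2 fold change -0.37 ± 0.10, limma adjusted p = 0.193). Rnaseh2c, a subunit of the enzyme that removes ribonucleotides from DNA, was at 8.48 ± 2.02 FPKM across the controls and 5.31 ± 1.45 in ZQD (-0.63, limma adjusted p = 0.246). Uhrf1, which keeps DNA methylation in step with replication, was at 45.2 ± 9.67 and 41.9 ± 8.77 FPKM (-0.11, limma adjusted p = 0.828). The median over this list was 0.001, with 18 estimates (48.6%) below 0, beside 58.2% of all genes tested. Groups did not overlap for 4 of its 37 tested genes (10.8%), beside 15.2% of all genes tested.

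Among 19 other enzymes of nucleotide synthesis or breakdown, 13 estimates (68.4%) lay below 0 and the median was -0.17. At an unadjusted limma p under 0.05 there were 4 (21.1%), of which 3 were lower and 1, Samhd1, higher. Over all genes tested these shares were 58.2% and 15.5%, with a median of -0.043. Dctd, which makes dUMP from dCMP, was at 7.41 ± 0.737 FPKM across the controls and 5.73 ± 0.244 in ZQD (-0.34, limma adjusted p = 0.193). Adsl, of purine synthesis, had an estimate of -0.30 and Tk2, the mitochondrial thymidine kinase, of -0.21, and Samhd1, which breaks down deoxynucleotides, was at 46.2 ± 3.92 and 53.4 ± 3.43 FPKM (0.21, limma adjusted p = 0.321). Paics, of purine synthesis, was at 56.1 ± 6.82 and 57.5 ± 1.40 FPKM. None of the 19 passed the adjusted threshold.

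Of 28 tested regulators of the G1 to S transition, 10 estimates (35.7%) lay below 0, the median was 0.058 and 3 (10.7%) had an unadjusted limma p under 0.05, beside 58.2%, -0.043 and 15.5% over all genes tested. E2f4, a repressor type E2F, was at 49.6, 44.9, 42.4 and 58.3 FPKM across the controls and 37.6, 37.3 and 41.5 in ZQD. Its groups did not overlap (log2 fold change -0.32 ± 0.12, limma adjusted p = 0.261). Cdkn2d, an inhibitor of Cdk4, had an estimate of 0.22 and Fbxw7, which marks cyclin E for degradation, of 0.27, each with groups that did not overlap and limma adjusted p of 0.292 and 0.318. In all, the groups did not overlap for 4 of the 28 (14.3%), beside 15.2% of all genes tested. Ccnd1, cyclin D1, was at 100.9 ± 6.00 and 102.7 ± 13.2 FPKM and its kinase Cdk4 at 64.7 ± 5.20 and 58.6 ± 2.24.

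The mitosis list, 28 genes of the later cell cycle, shared the library order of the replication genes but not their balance of signs. Control 1 was lowest of the controls for 23 of the 28 (82.1%) and ZQD 3 highest of ZQD for 21 (75%). Its estimates lay above 0 for 26 of 28, with a median of 0.18, beside 16 of 40 and -0.035 for the replication genes and 41.8% and -0.043 for all genes tested, and on the TPM scale 8 of the 28 lay below 0. The difference between the lists was not tested. At an unadjusted limma p under 0.05, 3 of the 28 mitosis genes (10.7%) were higher and 0 lower, beside 15.5% of all genes tested. For 3 (10.7%) the groups did not overlap, beside 15.2%. Bub1b, a spindle checkpoint kinase, was at 23.7, 23.9, 25.2 and 27.4 FPKM across the controls and 31.6, 33.9 and 30.8 in ZQD, with no overlap (log2 fold change 0.35 ± 0.083). It did not pass in limma (adjusted p = 0.156) or edgeR (adjusted p = 0.139), and DESeq2 called it (adjusted p = 0.00787). Of the 28 mitosis genes DESeq2 called 1, beside 3.49% of all genes. Incenp, of the Aurora B complex, and Cenpe, a kinetochore motor, had estimates of 0.41 and 0.23. Mki67, the proliferation antigen Ki-67, was at 47.5, 59.6, 66.3 and 56.1 FPKM across the controls and 61.1, 63.2 and 83.04 in ZQD (0.26, limma adjusted p = 0.408). Top2a, topoisomerase II alpha, was at 56.4 ± 11.2 and 59.3 ± 8.60 FPKM. For both the groups overlapped.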

How the data were processed

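Messenger RNA was sequenced in 7 tumour libraries, 4 control and 3 ZQD, grouped by sample title and treatment label. FPKM values were deposited by the authors for every library, and counts per gene for controls 1 and 2. HISAT2, featureCounts, Subread and DESeq2 are named in the submitters' processing notes; no source used here gives their versions, the strand setting, the build or the annotation. In controls 1 and 2 the deposited count and FPKM gave a gene length for 27421 of 32212 genes, equal to the exon union of GENCODE M21 for 98.2% of 27021 genes compared. With these lengths whole reads were recovered from the deposited FPKM, 100% of values lying within 0.05 reads of a whole number.

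The main test was limma 3.58.1 (trend, two-sided) under R 4.3.3. It used log2(FPKM + 0.5) and the 14838 genes that reached 0.5 FPKM in 3 or more libraries, with Benjamini-Hochberg adjustment over all of them. The recovered reads of 14832 genes also went through edgeR 4.0.16 (quasi-likelihood) and DESeq2 1.42.0; DESeq2 gave no adjusted p for 2307 of these, Fen1 among them. Further alternatives changed the scaling (median of ratios, TMM, TPM scale, without mitochondrially encoded genes), the pseudocount or the filter, weighted the libraries, used the replicate number as a block, or left out each library once. Symbols matched 98.0% of gene identifiers. Scripts were tested on simulated data first. Promoters and their coordinates are those of RefSeq. Plots used matplotlib 3.10.9 (Python 3.11.15).

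The 40 genes and the other lists were chosen with earlier results of these data known, so no list is tested and a list's counts stand beside those of all genes. Values per library are given for MCM2-7, for the member of smallest p and of highest mean FPKM in each role, and for members with groups that do not overlap. From the other lists the 3 genes of smallest p and the 2 of highest FPKM are named; Mki67, named in any case, is among the latter. Gmnn and Top1 were added after their values were seen. No source used here mentions molecular identifiers, so reads may not be independent molecules, and the depth limits low genes such as Fen1.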

Additional observations from a re-analysis of the deposited data

Results flagged for a closer look

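Of 59 genes whose 4 control values were checked, 1 had a control library far from the other 3: Paics, an enzyme of purine synthesis, was at 66.31 FPKM in control 4 and at 51.94 to 53.51 in controls 1 to 3. The gap took 0.891 of the control range. A check of this kind marks about 1 of 20 groups by chance, and no replication gene of the 40 had one. The 3 ZQD libraries were at 56.7, 56.7 and 59.1 FPKM, between control 4 and the other controls.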

How the results depend on the processing

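Of the 40 replication genes 0 were called in any of the 19 alternatives, with estimates below 0 for 16 (library weights) to 32 (TPM scale) of them. Genes called overall numbered 517 in DESeq2 and 1 with the replicate block. Same-numbered libraries of the 2 groups showed no clear pairing (correlations of their deviations 0.252, 0.0998 and -0.15, not every one highest with its own number). Whether libraries are linked by number cannot be told from so few values. The block fit (controls 1 to 3) is therefore only an alternative. It left 3 replication genes at an unadjusted limma p under 0.05 in place of 4. The cause of the moves below was not tested.

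Other replication factors below 0 numbered 29 on the TPM scale, 11 without mitochondrial genes and 10 with weights. Nucleotide enzymes at p under 0.05 numbered 2 with median-of-ratios scaling. G1/S regulators below 0 numbered 19, with a median of -0.035, on the TPM scale, and 1 was at p under 0.05 with the block. Mitosis genes below 0 numbered 8 on the TPM scale. They numbered 1 with median-of-ratios scaling, without mitochondrial genes, in edgeR, in DESeq2, with weights and with the block. Those at p under 0.05 numbered 8 without mitochondrial genes, 5 in edgeR and 7 in DESeq2, with weights and with the block. Over all genes, unadjusted p was under 0.05 for 14.6% with median-of-ratios scaling, 14.8% without mitochondrial genes and 15% in edgeR. The share was 15.7% in DESeq2, 15.1% with weights and 12.1% with the block. Below 0 lay 73% of all genes on the TPM scale, 52.9% with median-of-ratios scaling and 49.2% without mitochondrial genes. In edgeR, in DESeq2, with weights and with the block that share was 51.2%, 51%, 58.6% and 59.1%. The E2F core gave 63.6% of member genes.

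Estimates that changed sign were, with weights, Mcm4 0.025, Mcm7 0.023, Rfc1 0.036, Rfc2 0.003, Rfc5 0.050, Pole2 0.004, Lig1 0.067 and Rrm2 0.070. Without mitochondrial genes they were Mcm7 0.016, Rfc1 0.033, Rfc5 0.018, Pole2 0.036 and Lig1 0.052. With the block they were Mcm7 0.033, Rfc5 0.048, Pole2 0.078, Lig1 0.066 and Rrm2 0.026. On the TPM scale they were Gins2 -0.033, Gins4 -0.009, Rfc3 -0.080, Pola1 -0.087, Prim2 -0.008, Pold3 -0.012, Rpa3 -0.036 and Tk1 -0.064. Median-of-ratios scaling gave Rfc1 0.011, Pole2 0.015 and Lig1 0.029, and TMM gave Pole2 0.002 and Lig1 0.015. edgeR gave Rfc1 0.025, Pole2 0.017 and Lig1 0.035, and DESeq2 gave Rfc1 0.026, Pole2 0.018 and Lig1 0.037.

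With 1 library left out, replication genes below 0 numbered 17 to 28, those at p under 0.05 numbered 1 (without ZQD 1, E2f1) to 6 (without control 1), and the median ran from -0.12 to 0.035. Other replication factors gave 11 to 26, 3 to 8 and -0.048 to 0.080, nucleotide enzymes 12 to 13, 1 to 5 and -0.21 to -0.096, G1/S regulators 9 to 15, 1 to 3 and -0.011 to 0.065, and mitosis genes 1 to 6, 1 to 7 and 0.10 to 0.22. Over all genes tested in these limma fits, the shares were 55.7% to 59.3% and 12% to 15.6%, with medians from -0.048 to -0.031. Ranges that cross 0 were -0.27 to 0.004 for Mcm3, -0.18 to 0.031 for Mcm4, -0.13 to 0.033 for Mcm7, -0.011 to 0.16 for Gins2, -0.13 to 0.045 for Rfc1, -0.12 to 0.003 for Rfc2, -0.071 to 0.10 for Rfc3, -0.16 to 0.049 for Rfc5, -0.11 to 0.14 for Pola1, -0.001 to 0.22 for Prim2, -0.25 to 0.035 for Pole, -0.054 to 0.078 for Pole2, -0.030 to 0.15 for Rpa3, -0.096 to 0.10 for Lig1, -0.25 to 0.14 for Rrm2 and -0.055 to 0.12 for Tk1.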
